A study of Mus musculus with 36 samples.

Results

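Natural killer (NK) cells find their way through blood, bone marrow, lymphoid organs and inflamed tissue with a small set of G protein-coupled receptors, and 8 genes of this set were examined here. They were the chemokine receptor genes Cxcr4, Cx3cr1, Cxcr3, Cxcr6, Ccr2 and Ccr7 and the sphingosine 1-phosphate (S1P) receptor genes S1pr1 and S1pr5, matched by symbol in all 4 deposited tables, out of 56925 gene identifiers in the series. The series measured gene expression by RNA sequencing in mouse NK cells, in 36 libraries that form 12 groups of 3 biological replicates. Its title sets functional against desensitized NK cells, that is, cells that respond to a target against cells that have lost that response.

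Of the libraries, 18 came from mature splenic NK cells, sorted as CD27-CD11b+ and then by inhibitory receptors for MHC class I. The TP subset was positive for all 3 of Ly49C, Ly49I and NKG2A, the SP subset for Ly49I alone, and the TN subset for none. Each subset came from C57BL/6 mice with intact B2m (WT) and from B2m-/- mice (KO), which lack the light chain of MHC class I in every cell and so display little of it. A further 6 libraries came from NK cells purified out of WT splenocytes that had spent 22 h in vehicle or in ionomycin, which lets calcium into cells; the other splenocytes were present during treatment. Another 9 came from WT splenic NK cells after 48 h in medium, or on plate-bound antibodies to the activating receptors NKp46 and NKG2D or NKp46 and DNAM1. The last 3 came from CD27-CD11b+ NK cells of subcutaneous B2m-/- MC38 tumours, a mouse colon carcinoma line, grown for 10 days in WT hosts. Ages and sexes of the mice were not given in the labels used here. Values are TPM, a transcript abundance scaled for gene length and library size, so levels of different genes can be set side by side. The deposited values of a library sum to between 934292 and 948786 in the table of sorted subsets and to 1000000 in the others.

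CXCR4 binds CXCL12, which stromal cells of the bone marrow make in quantity, and holds cells there. S1P is high in blood and lymph and low inside tissue, and S1PR1 and S1PR5 let lymphocytes follow it out of an organ; S1PR5 is the form that marks mature NK cells. CX3CR1 binds fractalkine on endothelium and appears late in NK cell maturation, whereas CXCR3, CXCR6, CCR2 and CCR7 direct cells to inflamed tissue, to CXCL16 in the liver, to monocyte chemoattractants and to lymph nodes.

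The stretches of 250 bases just upstream of the annotated start of 3 members are printed because Cxcr4 showed the largest genotype difference of the 8 genes, while Cx3cr1 and S1pr5 were the members lower in TN than in TP cells of WT mice. They are RefSeq sequences of build GRCm38.p6, from a table that held 6 of the 8 members. All 3 lie on the minus strand and are written 5′ to 3′ in the direction of transcription, at chr1:128592300-128592549 for Cxcr4, chr9:120068297-120068546 for Cx3cr1 and chr9:21248444-21248693 for S1pr5. Capitals mark matches, on either strand, to CACCC, a core bound by Krüppel-like factors, and to TATAAA.
Cxcr4: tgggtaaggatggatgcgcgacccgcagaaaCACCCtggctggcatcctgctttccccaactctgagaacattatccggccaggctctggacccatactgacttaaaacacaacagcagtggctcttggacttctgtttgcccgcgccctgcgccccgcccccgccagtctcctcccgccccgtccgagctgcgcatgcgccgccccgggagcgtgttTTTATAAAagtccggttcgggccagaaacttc
Cx3cr1: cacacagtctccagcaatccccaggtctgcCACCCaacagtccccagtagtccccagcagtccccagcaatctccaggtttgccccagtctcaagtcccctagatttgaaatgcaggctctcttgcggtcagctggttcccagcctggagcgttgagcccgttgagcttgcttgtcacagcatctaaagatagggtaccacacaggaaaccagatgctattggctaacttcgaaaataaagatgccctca
S1pr5: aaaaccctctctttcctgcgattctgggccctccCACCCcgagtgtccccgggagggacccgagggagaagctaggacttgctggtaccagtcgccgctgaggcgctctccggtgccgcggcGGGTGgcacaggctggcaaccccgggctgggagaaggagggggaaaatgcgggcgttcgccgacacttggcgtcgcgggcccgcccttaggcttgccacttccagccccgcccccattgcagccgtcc
CACCC was found 1 time upstream of Cxcr4, 1 time upstream of Cx3cr1 and 2 times upstream of S1pr5, and it occurs in 52% of the 32851 promoters of the table. TATAAA was found in the Cxcr4 stretch only among these 3, as 2 overlapping matches on opposite strands, 32 and 30 bases before the start, and occurs in 12.4% of all promoters. GGTGTG, searched the same way, was not found in these 3 stretches and occurs in 16.3% of promoters. Neither was CAGGTG, an E-box that ZEB2 can bind (17.2% of promoters). The forkhead motif GTAAACA was absent too, and occurs in 3.17%. The G and C content was 61.2% for Cxcr4, 53.6% for Cx3cr1 and 69.2% for S1pr5. In RefSeq gene order Ccr2, Cxcr6, Cx3cr1 and S1pr5 share chromosome 9.

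The libraries matched their labels as NK cells. The summed TPM of 8 NK cell markers ran from 19826 to 23506 in the splenic subsets and from 10790 to 11400 in the tumour cells, while 8 T cell markers summed to at most 17.6 TPM in the subsets. B2m averaged between 2977 and 3312 TPM in the WT groups and between 94.2 and 113 TPM in the KO groups. The 3 KO TP libraries stood apart by neutrophil markers, which summed to 61, 105 and 218 TPM against at most 5.85 TPM in the other 15 subset libraries, and by B and plasma cell markers, at 683, 404 and 596 TPM against 167 to 337 TPM. In the ionomycin experiment, vehicle replicate 3 stood apart, with 381 TPM of neutrophil markers against 1.23 and 2.19 TPM in the other vehicle libraries, and 8305 TPM of NK cell markers against 14481 and 14224 TPM. Ionomycin replicate 3 also held neutrophil markers, at 121 TPM against 0 and 0.7 TPM in the other ionomycin libraries. The neutrophil genes Ly6g and Cxcr2 were at most 0.51 and 0 TPM in KO TP cells. In bulk RNA, fewer cells that express a gene and less RNA of it per cell cannot be told apart. Comparisons within a table share groups, so their values are given side by side and are not independent.

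**Figure D1:**
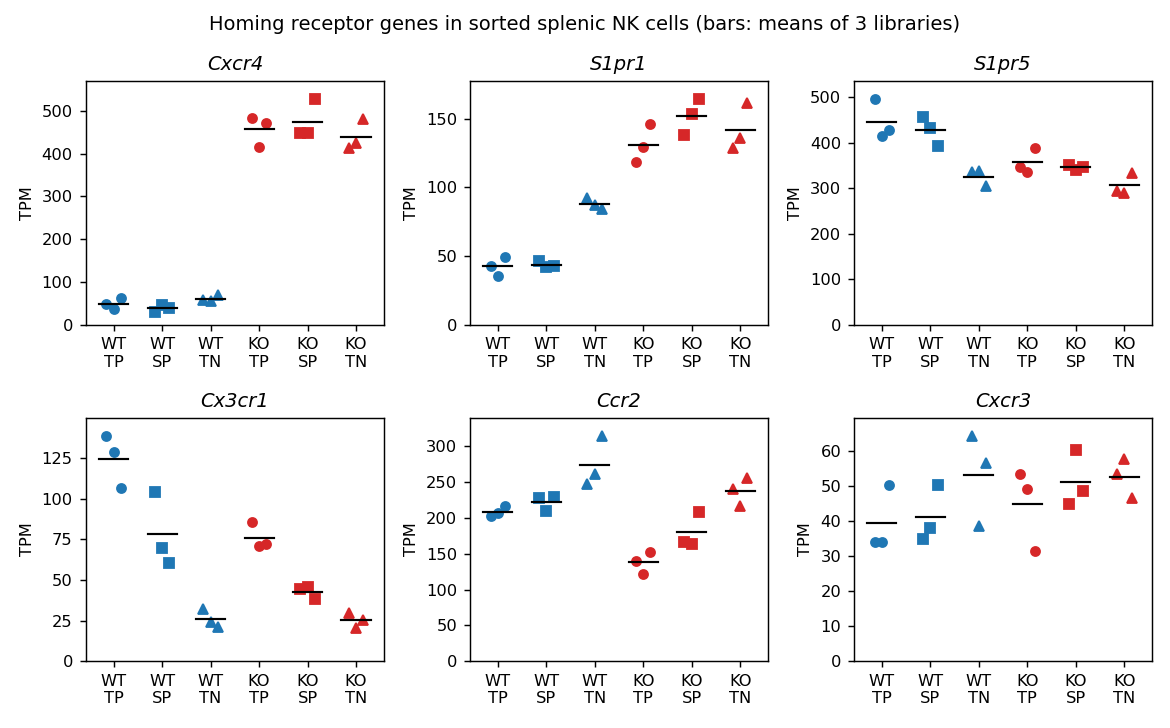
Level of the 6 members above the filter in each library of the sorted splenic subsets, in TPM on a linear axis from 0. Blue marks WT and red KO, circles, squares and triangles mark TP, SP and TN, and bars mark means of 3 libraries; all 9 KO libraries lie above all 9 WT libraries for Cxcr4 and S1pr1.

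Cxcr4 was low in WT cells and high in KO cells of every subset. In WT TP cells it was at 47.64, 36.09 and 62.33 TPM. In WT SP cells it was at 29.18, 47.02 and 39.63 TPM, and in WT TN cells at 56.96, 56.11 and 69.36 TPM. The 3 WT subsets thus spanned a narrow band, from 29.2 to 69.4 TPM over 9 libraries. KO TP cells held 482.88, 416.72 and 472.16 TPM. KO SP cells held 448.38, 447.51 and 527.86 TPM, and KO TN cells 412.37, 425.41 and 481.09 TPM. No KO library came near a WT library: the lowest KO value was 412 TPM and the highest WT value 69.4 TPM. Ranked by level among 32938 genes that all 4 tables list, Cxcr4 had a median rank of 4175 in WT TP libraries and of 299 in KO TP libraries.

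In the test of KO against WT, limma on log2(TPM + 1) with Benjamini-Hochberg adjustment over all 12018 genes tested, Cxcr4 rose in each subset. The log2 difference was 3.24 in TP (95% confidence interval 2.86 to 3.61, adjusted p = 5.93e-09), a 9.42-fold difference on that scale. It was 3.61 in SP (3.23 to 3.98, adjusted p = 1.40e-09), and 2.84 in TN (2.46 to 3.21, adjusted p = 4.74e-08). By size of change it ranked 33, 18 and 39 among all genes in TP, SP and TN. Neutrophil markers summed to at most 5.85 TPM in the KO SP and KO TN libraries. Their part in the Cxcr4 values was not tested. The order of group means ran from KO SP (475 ± 46.1 TPM, SD, n = 3) through KO TP (457 ± 35.5) and KO TN (440 ± 36.5), which overlapped, to WT TN (60.8 ± 7.42), WT TP (48.7 ± 13.2) and WT SP (38.6 ± 8.96), which overlapped with their neighbours in that order.

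S1pr1, the S1P receptor that carries lymphocytes out of lymphoid organs, was also higher in KO cells, and in WT mice it was higher in TN cells. It was at 42.87, 35.17 and 49.20 TPM in WT TP and at 46.54, 41.78 and 42.99 TPM in WT SP cells. WT TN cells held 92.56, 87.10 and 84.13 TPM, above every other WT library. In KO mice the values were 118.42, 129.11 and 146.02 TPM in TP, and 138.22, 153.22 and 164.38 TPM in SP. KO TN cells held 129.09, 136.04 and 161.51 TPM. The 3 KO subsets overlapped with each other and none overlapped with a WT group.

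S1pr1 rose in KO TP by 1.61 (log2, SE 0.13, limma adjusted p = 1.23e-06), in KO SP by 1.77 (adjusted p = 3.12e-07) and in KO TN by 0.68 (interval 0.41 to 0.96, adjusted p = 0.0171). The rise in TN minus that in TP was -0.93 on the log2 scale (interval -1.32 to -0.54, adjusted p = 0.098), and the rise in TN minus that in SP was -1.09 (interval -1.48 to -0.70, adjusted p = 0.134), so neither difference passed the test over all genes. The call in TN was lost when 1 library was left out: the adjusted p was 0.0617 without WT TN replicate 2, 0.0504 without KO TN replicate 2 and 0.106 without KO TN replicate 3. It was 0.131 when the 2 groups were fitted alone.

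S1pr5, the S1P receptor of mature NK cells, was by mean the most abundant member in each WT subset, and it was lower in WT TN cells than in the other WT subsets. WT TP cells held 496.06, 414.38 and 427.77 TPM and WT SP cells 456.09, 433.34 and 393.10 TPM. WT TN cells held 335.51, 337.17 and 304.75 TPM, below every WT TP and SP library. KO TP cells held 347.47, 334.67 and 389.61 TPM. KO SP cells held 351.47, 340.98 and 345.78 TPM, and KO TN cells 294.79, 290.08 and 334.53 TPM. The KO TP and KO SP libraries lay below all WT libraries of their own subset, but KO minus WT was not called: -0.32 in TP (interval -0.51 to -0.13, limma adjusted p = 0.0995), -0.30 in SP (-0.49 to -0.11, adjusted p = 0.129) and -0.09 in TN (-0.28 to 0.10, adjusted p = 0.787).

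The ratio of the 2 S1P receptors was lower in all 9 KO libraries than in all 9 WT libraries. S1pr5 per S1pr1, in TPM, had a median of 11.6 in WT TP (range 8.69 to 11.8) and 9.8 in WT SP (9.14 to 10.4) cells. It was 3.62 in WT TN cells (3.62 to 3.87), and in KO cells 2.67 in TP, 2.23 in SP and 2.13 in TN, with all 9 KO libraries between 2.07 and 2.93. Cxcr4 per S1pr5 went from a median of 0.096 in WT TP to 1.25 in KO TP cells, so Cxcr4 mRNA exceeded S1pr5 mRNA in each KO library and was at most 0.228 times it in each WT library.

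**Figure D2:**
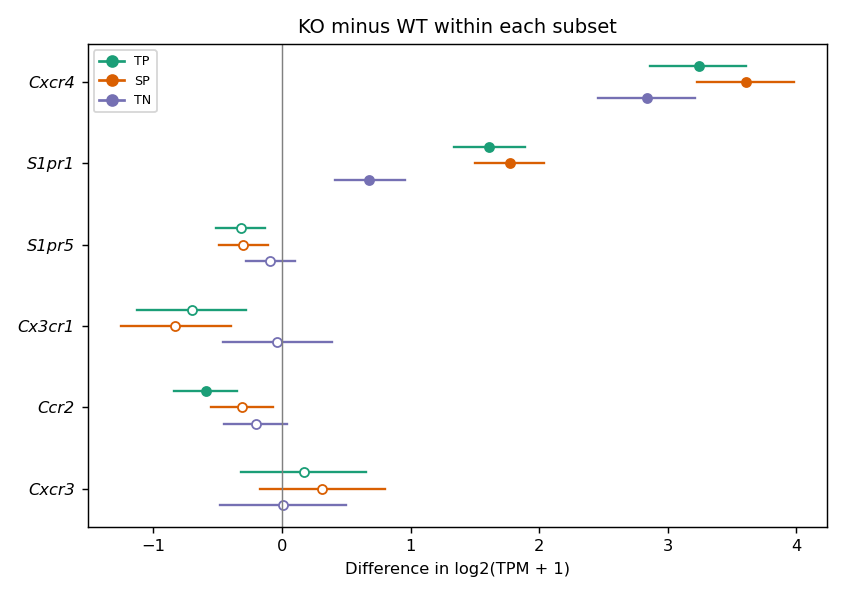
Difference KO minus WT in log2(TPM + 1) for the 6 tested members within TP, SP and TN cells; points are limma estimates, lines are 95% confidence intervals, and filled points passed an adjusted p under 0.05. Cxcr4 lies between 2.84 and 3.61 and S1pr1 between 0.68 and 1.77.

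Cx3cr1, a marker of late maturation, was highest in TP, intermediate in SP and lowest in TN cells of both genotypes. It was at 138.51, 128.81 and 106.32 TPM in WT TP and at 103.89, 69.92 and 60.51 TPM in WT SP cells. WT TN cells held 32.45, 24.18 and 21.43 TPM. The 3 WT groups did not overlap. In KO mice TP cells held 85.50, 70.58 and 72.08 TPM, SP cells 44.30, 45.43 and 38.12 TPM and TN cells 29.95, 20.41 and 25.29 TPM, again without overlap. TN libraries of the 2 genotypes overlapped, with means of 26 ± 5.74 TPM in WT and 25.2 ± 4.77 TPM in KO.

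Cx3cr1 differed between genotypes by -0.70 in TP (limma adjusted p = 0.111) and -0.83 in SP (interval -1.25 to -0.40, adjusted p = 0.0537), and by -0.04 in TN (interval -0.46 to 0.39, adjusted p = 0.978). The SP difference fell below 0.05 without WT SP replicate 3 (-0.99, adjusted p = 0.0282), without WT TN replicate 1 (adjusted p = 0.0399), without KO TN replicate 2 (adjusted p = 0.0495) and with median-of-ratios scaling (adjusted p = 0.0443). The interaction tests did not call Cx3cr1: the genotype difference in TN exceeded that in TP by 0.66 (interval 0.06 to 1.26, adjusted p = 0.739).

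Ccr2, the receptor for the monocyte chemoattractant CCL2, was abundant in all subsets. WT TP cells held 202.25, 206.72 and 215.89 TPM, WT SP cells 227.16, 209.49 and 228.80 TPM and WT TN cells 247.46, 260.32 and 313.88 TPM. KO TP cells held 140.25, 121.42 and 152.85 TPM, the lowest of the 6 groups, with KO SP at 166.81, 163.92 and 207.83 TPM and KO TN at 239.51, 216.42 and 254.55 TPM. Ccr2 fell in KO TP cells by 0.59 on the log2 scale (interval -0.84 to -0.35, limma adjusted p = 0.0102), in the group that also carried the neutrophil and B cell markers. It was not called in SP (-0.31, adjusted p = 0.264) or TN (-0.20, adjusted p = 0.565). The TP call was lost without WT TP replicate 3 (adjusted p = 0.0521), without KO TP replicate 2 (adjusted p = 0.0599) and with the 2 groups fitted alone (adjusted p = 0.0552).

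Cxcr3, the receptor for the interferon-induced chemokines CXCL9 to CXCL11, showed no called difference. It lay between 34.1 and 64.4 TPM over 9 WT libraries (median 38.5) and between 31.6 and 60.4 TPM over 9 KO libraries (median 49.4), and KO minus WT was 0.17 in TP (interval -0.32 to 0.65), 0.31 in SP (-0.17 to 0.80) and 0.01 in TN (-0.48 to 0.50). Cxcr6 was at most 2.64 TPM and Ccr7 at most 0.31 TPM in any subset library, and Ccr7 was listed at 0 in 7 of 9 WT and 8 of 9 KO libraries. Neither reached a mean of 1 TPM, so 6 of the 8 members were tested in this table.

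Of the 6 tested members, 3 were called in KO against WT TP cells, 2 higher and 1 lower, where 1.59% of all genes were called. In SP 2 were called, both higher, against 1.35% of genes, and in TN 2, both higher, against 0.716%. Groups did not overlap for 5 of 6 members in TP, 5 in SP and 2 in TN, and for 18.3%, 18.9% and 13.7% of all genes. Over the 3 interactions of genotype and subset, limma called 0 members. The shares of all genes called were 0.0166% for SP against TP, 0.025% for TN against TP and 0% for TN against SP. At an unadjusted limma p under 0.05 there were 0, 3 and 3 members, in that order. The share of all genes at that unadjusted threshold is not given, so these counts cannot be set against the shares called. Among all genes 118 were higher and 73 lower in KO TP cells, and 94 and 93 with median-of-ratios scaling.

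Genes known to rise with glucocorticoids moved with the genotype difference. Their sum over 8 genes ran from 273 to 402 TPM in the 9 WT and from 645 to 820 TPM in the 9 KO libraries, without overlap. In KO TP cells 3 of these 8 rose, with Tsc22d3, which encodes the protein GILZ, at a log2 difference of 1.51, Ddit4 at 1.31 and Per1 at 0.81 (limma adjusted p = 1.64e-06, 0.00206 and 0.0108). In KO SP and KO TN cells 2 of 8 rose, Tsc22d3 by 1.37 and 1.72 and Ddit4 by 1.55 and 1.43. The median change of the list was 0.58, 0.61 and 0.46 in TP, SP and TN, against 0.04, 0.03 and 0.02 over all tested genes. The part of these signals in the Cxcr4 difference was not tested. Genes that rise while tissue is dissociated and sorted, which include Fos and Egr1, summed to between 868 and 1054 TPM in all 18 libraries. Under that sum single genes moved both ways. KO minus WT was 1.47 for Dusp1 in TP (limma adjusted p = 0.0634) and -1.21 for Fos in TN (0.513), both without a call. Of that list, Egr1 was called in KO against WT, lower in KO SP cells by 2.33 (adjusted p = 0.00201).

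**Figure D3:**
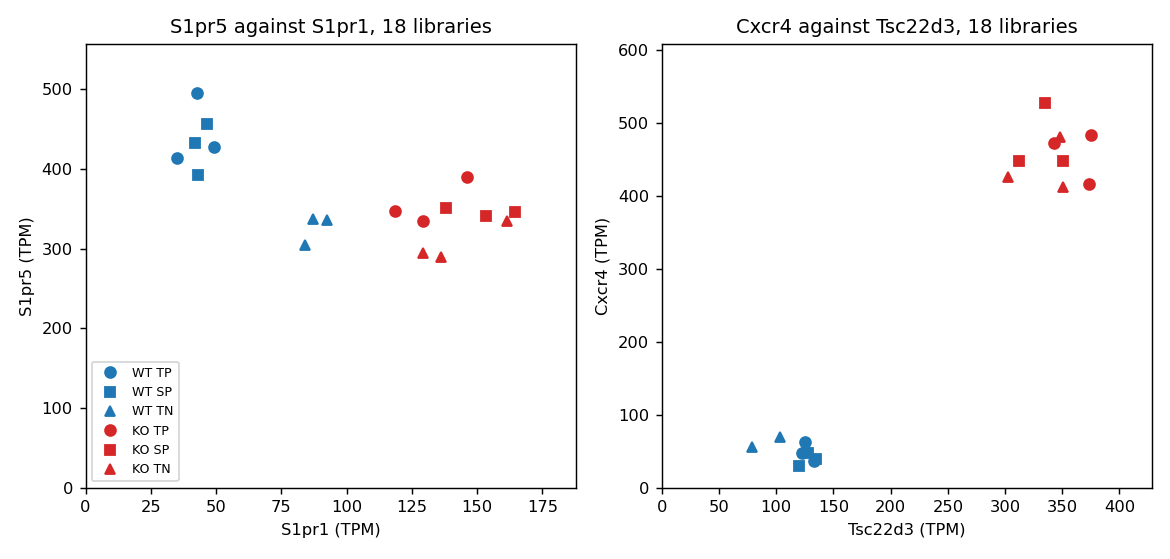
S1pr5 against S1pr1 (left) and Cxcr4 against Tsc22d3 (right) in the 18 subset libraries, in TPM on linear axes from 0, with WT in blue, KO in red and TP, SP and TN as circles, squares and triangles. WT and KO libraries form separate clouds in both plots, and WT TN cells lie between the other WT cells and the KO cells on the S1pr1 axis.

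Among regulators of these receptors, Klf2, a transcription factor that drives S1pr1, averaged 579 ± 50.6 TPM in WT TP and 577 ± 23.3 TPM in KO TP cells, and its KO minus WT difference was not called in any subset (limma adjusted p = 1, 0.552 and 0.791 in TP, SP and TN). Cd69, whose product removes S1PR1 from the surface, was between 5.32 and 26.8 TPM in all 18 libraries. Of 25 genes for G proteins and migration signalling, Pik3r5, the regulatory subunit of the G protein-activated kinase PI3Kγ, rose in KO cells by 0.53, 0.48 and 0.45 in TP, SP and TN (adjusted p = 0.00217, 0.00531 and 0.0145). None of the 13 tested desensitisation genes or the 7 tested genes of S1P metabolism passed the test in KO against WT, in any subset. Of the 11 chemokine genes that encode ligands of these receptors, none reached a mean of 1 TPM over this table.

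Between subsets of WT mice, the members with a call were Cx3cr1, S1pr1 and S1pr5. TN against TP cells gave 3 of 6 called members, 1 higher and 2 lower, where 1.31% of all genes were called. Cx3cr1 fell by 2.23 (SE 0.20, interval -2.65 to -1.80, limma adjusted p = 3.94e-06), a 4.69-fold difference. S1pr1 rose by 1.05 (SE 0.13, adjusted p = 0.000152) and S1pr5 fell by 0.45 (SE 0.09, adjusted p = 0.0147). The S1pr5 call was lost without WT TP replicate 1 (adjusted p = 0.0852) or WT TN replicate 3 (adjusted p = 0.0611), with no variance trend (0.0737) and with the 2 groups fitted alone (adjusted p = 0.201).

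Against SP cells, TN cells gave 2 of 6 called members, with 0.383% of all genes called. Cx3cr1 fell by 1.53 and S1pr1 rose by 0.99, both with a limma adjusted p of 0.00121, and with the 2 groups fitted alone these were 0.157 and 0.125. S1pr5 was lower by 0.39 without a call (adjusted p = 0.0789). Against TP cells, SP cells gave 0 of 6 called members by limma, with 0.191% of genes called. At an unadjusted p under 0.05 there was 1 member, with no share of all genes given at that threshold. Cx3cr1 had a change of -0.70 (interval -1.12 to -0.27, limma adjusted p = 0.298). Cxcr4 did not pass in any of these 3 comparisons, at 0.34, -0.32 and 0.66 for TN against TP, SP against TP and TN against SP. Groups did not overlap for 4, 1 and 5 of 6 members in these comparisons, in that order, and for 14.6%, 10.6% and 11.4% of all genes.

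In KO mice TN against TP cells gave 2 of 6 called members, with 0.524% of genes called. Cx3cr1 fell by 1.57 (interval -1.99 to -1.14, limma adjusted p = 0.000316) and Ccr2 rose by 0.78 (interval 0.53 to 1.02, adjusted p = 0.00139). S1pr1, which set TN apart from TP and SP cells in WT mice, had a KO difference of 0.11 (interval -0.16 to 0.39, adjusted p = 1). S1pr5 had one of -0.22 (adjusted p = 0.651). Markers of other cells differed between the same groups. All 5 tested neutrophil markers and 3 of 5 tested B cell markers fell from KO TP to KO TN cells, and the neutrophil sum was at most 0.82 TPM in KO TN cells. Of 6 tested monocyte, macrophage and dendritic cell markers 3 fell and 1 rose. Their log2 changes were -4.01 for Lyz2, -2.70 for H2-Ab1, -1.21 for Ly6c2 and 0.84 for Itgax. The list summed to 1396, 1350 and 1499 TPM in KO TP against 1183, 1021 and 1088 TPM in KO TN cells. It counts Itgax and Ly6c2, which averaged 132 and 118 TPM in vehicle-treated NK cells, where Csf1r and Adgre1 were at 0. The sum therefore cannot be read as other cells alone. Markers of type 1 innate lymphoid cells (ILC1), which are relatives of NK cells, summed to 36.9, 40.9 and 25.3 TPM against 10.6, 9.3 and 16.2 TPM, and 1 of 6 tested fell. The part of these markers in the Cx3cr1 and Ccr2 differences was not tested. SP against TP gave 0 called members by limma, with 0.2% of genes called, and TN against SP 0, with 0.0416%. In each, 2 members had an unadjusted p under 0.05, with no share of all genes given at that threshold. Cx3cr1 had -0.82 and -0.75 there (limma adjusted p = 0.218 and 0.651). Groups did not overlap for 3, 2 and 3 of 6 members in TN against TP, SP against TP and TN against SP, and for 13.2%, 10.9% and 10.9% of all genes.

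**Figure D4:**
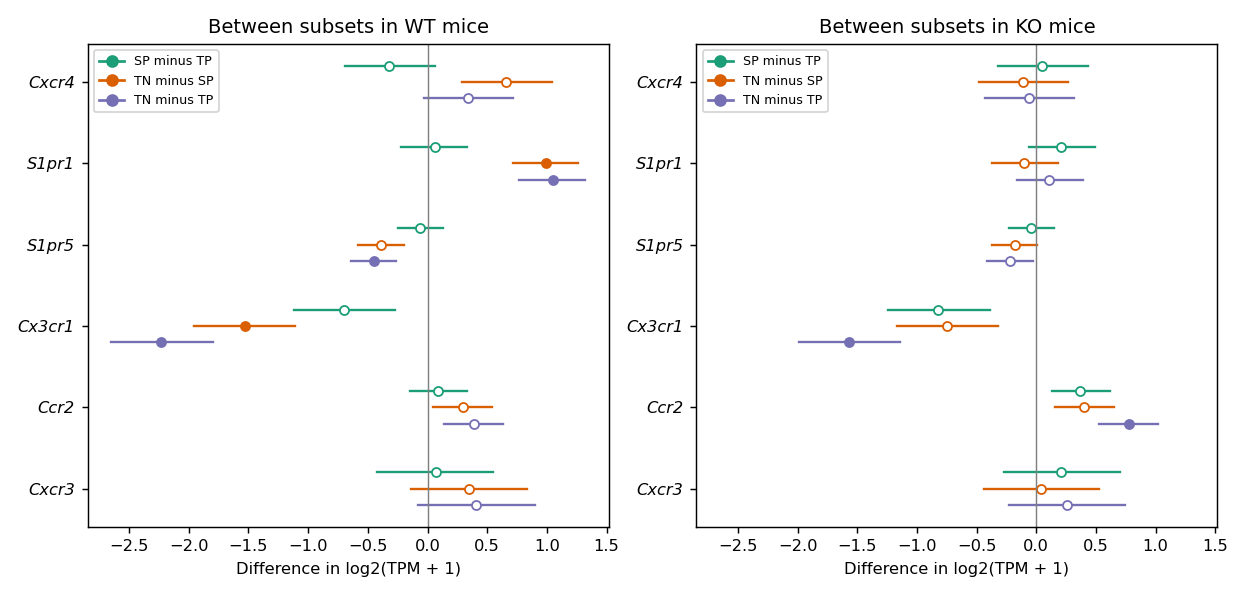
Differences between subsets in log2(TPM + 1) for the 6 tested members in WT (left) and KO (right) mice; points are limma estimates, lines are 95% confidence intervals, and filled points passed an adjusted p under 0.05. Cx3cr1 is negative in all 6 comparisons, while S1pr1 lies near 1 for both TN comparisons in WT mice and near 0 in KO mice.

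A pair of maturation genes moved against Cx3cr1 between WT TP and TN cells. Cd27, which is lost as mouse NK cells mature and was used as a negative gate, was at 84.5, 89.8 and 118 TPM in WT TP and at 170, 194 and 205 TPM in WT TN cells, a rise of 0.97 (limma adjusted p = 0.000527). Eomes, a transcription factor of NK cell development, rose by 0.73 in WT TN against TP cells (adjusted p = 4.82e-05). ILC1 markers summed to 35.6, 23.6 and 36.1 TPM in WT TP and to 8.95, 7.6 and 12.8 TPM in WT TN cells. Monocyte, macrophage and dendritic cell markers, a list that again counts Itgax and Ly6c2, summed to 1890, 1944 and 1937 TPM against 1574, 1534 and 1456 TPM. The part of these signals in the Cx3cr1, S1pr1 and S1pr5 differences was not tested. In the same comparison 1 of 8 tested other chemoattractant receptors fell, S1pr4 by 0.54 (adjusted p = 0.0184). Rap1b, a small GTPase that switches integrins on, fell by 0.96 as 1 of 25 signalling genes (adjusted p = 0.000105). Rgs1, a GTPase activator that dampens chemokine receptor signals, fell by 1.32 as 1 of 13 desensitisation genes (adjusted p = 0.00983). In KO TN against TP cells Rap1b fell by 0.57 (adjusted p = 0.0309).

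The genes whose levels followed the members most closely over the 18 subset libraries are given as a description, since these libraries fall into 2 genotypes and share their sorts. Cxcr4 had its highest Pearson correlations of log2 values with Serpinb9 (0.983), Camk2b (0.975) and Zfp36l2 (0.972) and its lowest with B2m (-0.985), Slc28a2 (-0.982) and Khdc1a (-0.978). Cx3cr1 went with Klrg1 (0.941), a receptor of terminally mature NK cells, Hopx (0.937) and Gpc1 (0.923), and against Cd27 (-0.921), Ctla2a (-0.908) and Klra13-ps (-0.899). S1pr1 went with Vps37b (0.951), Trim65 (0.941) and Pik3r1 (0.932), and against Phactr3 (-0.937), Rab37 (-0.934) and Galnt6 (-0.933). S1pr5 went with Spata13 (0.921), Klrg1 (0.917) and Vim (0.904), and against Sla (-0.905), Cd27 (-0.903) and Spint2 (-0.894). Among the members, Cxcr4 and S1pr1 correlated at 0.920 and Cx3cr1 and S1pr5 at 0.859.

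After 22 h with ionomycin no member passed the test (limma, 0 of 8, with 2.91% of all 14372 genes called), and the vehicle libraries differed widely from each other. At an unadjusted p under 0.05 there were 2 members, with no share of all genes given at that threshold. Ccr7, which guides cells to lymph nodes, was at 8.84, 16.25 and 53.65 TPM in the vehicle libraries and at 97.20, 86.79 and 123.66 TPM after ionomycin. It was the 1 member whose groups did not overlap, as 20.1% of genes did not. Its log2 change was 2.29 (interval 1.01 to 3.56, adjusted p = 0.0748). The value moved with vehicle replicate 3, 1 of the 2 libraries with neutrophil markers: without it the change was 2.97 (adjusted p = 0.00461), and without replicate 3 of both groups, which leaves out both of those libraries, it was 2.83 (adjusted p = 0.0561). Quantile normalization gave an adjusted p of 0.0436.

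Ccr2 was at 154.72, 292.47 and 313.43 TPM in the vehicle libraries and at 156.17, 103.37 and 86.25 TPM after ionomycin, a change of -1.11 (limma adjusted p = 0.14). Without vehicle replicate 1 it was -1.43 (adjusted p = 0.0283). S1pr5 was at 15.07, 62.06 and 84.76 TPM in vehicle and at 5.77, 22.49 and 19.87 TPM in ionomycin (-1.57, interval -3.17 to 0.03, adjusted p = 0.344). The groups of both genes overlapped. S1pr1 ran from 2.15 over 10.83 to 65.55 TPM in the vehicle libraries and from 14.78 to 17.68 TPM with ionomycin (0.35, adjusted p = 0.914). Its change was -0.71 without vehicle replicate 1 (adjusted p = 0.639) and 1.44 without replicate 3 of both groups (adjusted p = 0.496), so its direction rests on single libraries. Cxcr4 was at 73.71, 121.28 and 379.36 TPM in vehicle and at 202.62, 210.54 and 200.15 TPM in ionomycin (0.44, interval -0.72 to 1.59, adjusted p = 0.751). It was -0.07 without vehicle replicate 1 (adjusted p = 0.952) and 1.12 without replicate 3 of both groups (adjusted p = 0.203). Vehicle replicate 3 held the highest value of the 6 libraries for Cxcr4, S1pr1, S1pr5, Cxcr3 and Ccr2.

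Cx3cr1 was between 8.48 and 22.10 TPM in all 6 libraries, and Cxcr3 between 5.76 and 52.60 TPM. Cxcr6 was at 89.79, 52.52 and 20.50 TPM in vehicle and at 41.51, 18.17 and 14.97 TPM after ionomycin (interval of the log2 change -2.31 to 0.31, limma adjusted p = 0.483). Around the members, Cmklr1, the chemerin receptor of NK cells, fell by 3.03 as 1 of 9 tested other receptors (adjusted p = 0.0104). Of 14 desensitisation genes 2 rose, Rgs16 by 2.95 and Rgs1 by 2.54 (adjusted p = 0.0139 and 0.00144), and 2 fell. Of 25 signalling genes 4 fell and none rose, among them Coro1a, an actin-binding protein, by 1.97 (adjusted p = 0.0115). Of 8 NK cell markers none rose and 3 fell, and their sum was between 5840 and 7426 TPM with ionomycin. The part of NK cell share or of neutrophil RNA in these values was not tested.

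**Figure D5:**
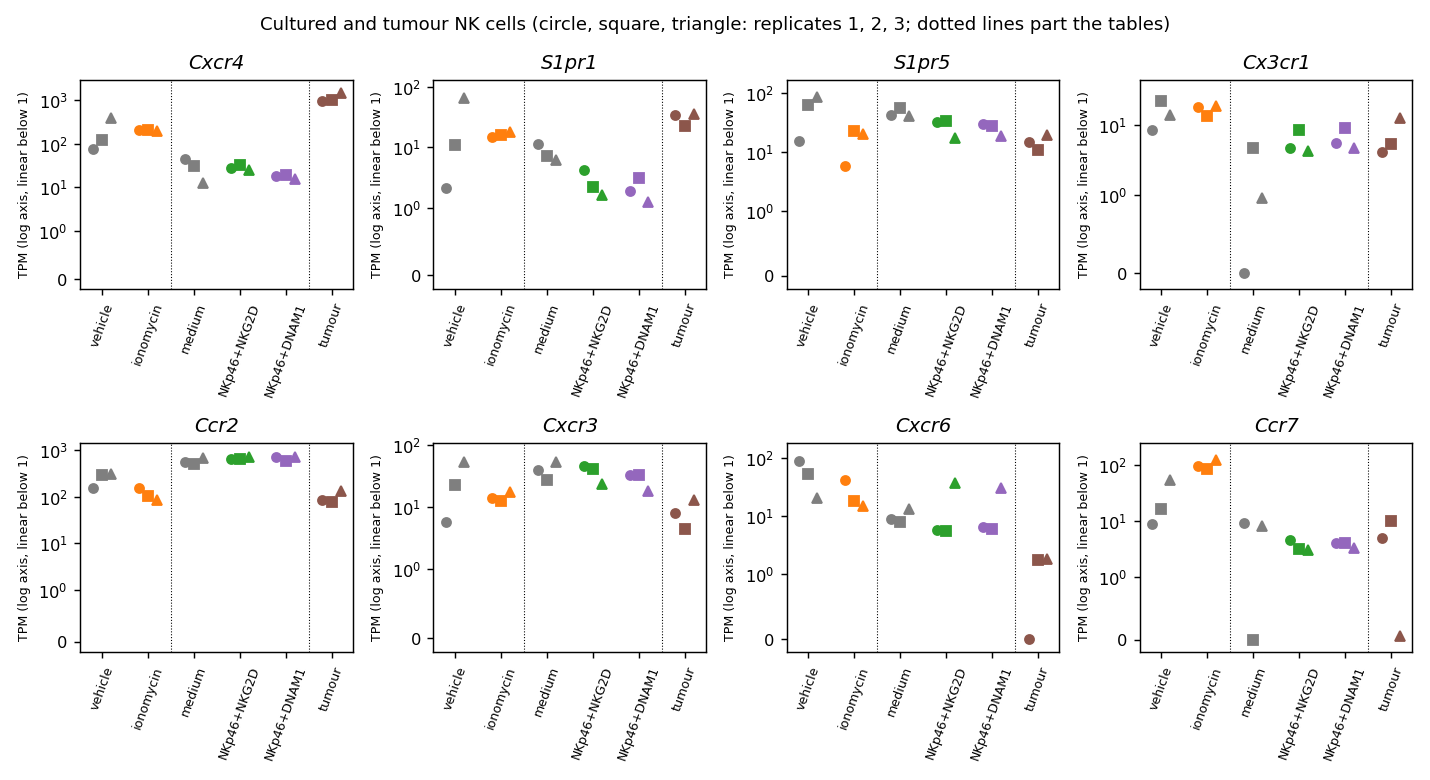
Level of the 8 members in each library of the ionomycin, antibody and tumour tables, in TPM on a log axis that is linear below 1; circles, squares and triangles are replicates 1, 2 and 3, and dotted lines part the tables, which are not compared with each other. Ccr7 is higher in all 3 ionomycin than in all 3 vehicle libraries, and S1pr1 and S1pr5 are lower in all 6 antibody libraries than in the 3 medium libraries.

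After 48 h on activating antibodies, again no member passed the test (limma, 0 of 8 in each comparison with medium). At an unadjusted p under 0.05 there were 3 in each, Cx3cr1, S1pr1 and S1pr5, and 0 between the antibody pairs. No share of all genes is given at that threshold. Both comparisons with medium use the same medium libraries. All genes were called at 0.431% for NKp46 and NKG2D, at 0.782% for NKp46 and DNAM1, and at 0.0146% between the antibody pairs, of 13689 genes tested. Groups follow the column names of the table, since sample titles and column names named different groups for 6 of 9 samples. S1pr1 was at 11.31, 7.14 and 6.30 TPM in medium, at 4.17, 2.21 and 1.64 TPM with NKp46 and NKG2D and at 1.91, 3.13 and 1.26 TPM with NKp46 and DNAM1. S1pr5 was at 43.21, 56.36 and 40.75 TPM in medium, at 32.76, 33.51 and 17.02 TPM and at 29.61, 27.71 and 18.85 TPM. For both genes each antibody group lay wholly below medium, which held for 17.3% of all genes, in either direction, with NKG2D and for 21.1% with DNAM1.

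The log2 change of S1pr1 was -1.35 (interval -2.29 to -0.42, limma adjusted p = 0.194) and -1.58 (-2.52 to -0.65, adjusted p = 0.118), and that of S1pr5 -0.78 (adjusted p = 0.247) and -0.87 (adjusted p = 0.17). With samples grouped by title these became -0.26 and -0.70 for S1pr1 and 0.10 and -0.54 for S1pr5. Cd69 fell by 1.53 and 1.31 (adjusted p = 0.0171 and 0.0337), as the 1 of 14 regulators with a call in each comparison, and Klf2 changed by -1.03 and -1.38 without a call (adjusted p = 0.195 and 0.0906). Of 12 tested genes from the list that includes Fos and Egr1, 6 fell in each comparison, in cells that had all been cultured for 48 h. They were led by Egr1 (-2.64 and -2.63) and Fos (-2.64 and -2.34). The list summed to 4863, 3816 and 3268 TPM in medium and to between 1167 and 1453 TPM on antibodies; their part in the S1P receptor values was not tested.

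Cxcr4 was at 43.78, 30.06 and 12.48 TPM in medium and at 28.13, 31.58 and 24.86 TPM with NKp46 and NKG2D. With NKp46 and DNAM1 it was at 17.92, 18.79 and 15.75 TPM, below every NKG2D library; that difference was -0.66 (limma adjusted p = 1), and 7.42% of genes did not overlap there. Against medium it was -0.53 (adjusted p = 0.493), and -1.02 without medium replicate 3 (adjusted p = 0.0396). Ccr2 was the most abundant member, between 503.12 and 715.18 TPM in all 9 libraries, with changes of 0.20 and 0.21 against medium. Cx3cr1 was at 0, 4.77 and 0.97 TPM in medium and between 4.24 and 9.20 TPM on antibodies (1.55 and 1.68, adjusted p = 0.271 and 0.201). Cxcr3 lay between 18.08 and 54.05 TPM. Cxcr6 was highest in the replicate 3 libraries, at 13.52, 36.69 and 30.47 TPM against at most 9.04 TPM elsewhere. Ccr7 was listed at 0 in medium replicate 2 and was otherwise between 3.04 and 9.43 TPM.

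In NK cells from B2m-/- MC38 tumours Cxcr4 was the most abundant member, at 956.86, 990.38 and 1468.71 TPM. Its rank among the 32938 shared genes was between 98 and 169. Ccr2 followed with 85.89, 78.45 and 133.54 TPM, and S1pr1 with 34.64, 22.73 and 35.91 TPM. S1pr5 was at 14.55, 10.57 and 19.71 TPM, so S1pr1 exceeded S1pr5 in each tumour library, with a ratio of S1pr5 to S1pr1 between 0.42 and 0.549. Cx3cr1 was at 4.11, 5.31 and 12.72 TPM and Cxcr3 at 8.14, 4.42 and 13.18 TPM. Ccr7 was at 5.02, 10.24 and 0.05 TPM, and Cxcr6 was listed at 0 in replicate 1 and was at 1.79 and 1.84 TPM in the others.

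Other signals in the tumour libraries are given as levels only. Handling genes summed to 7025, 7440 and 12537 TPM, and the spread lay mainly in the heat shock genes Hspa1b, at 374, 457 and 3785 TPM, and Hspa1a, at 149, 246 and 1933 TPM. Glucocorticoid genes summed to 778, 988 and 919 TPM. Monocyte, macrophage and dendritic cell markers summed to 462, 412 and 429 TPM. Of that, Itgax held 219, 215 and 166 TPM, Ly6c2 130, 154 and 220 TPM and Lyz2 27.7, 16 and 8.77 TPM. ILC1 markers summed to 66.2, 91.6 and 83.6 TPM. Neutrophil markers were at 0 in all 3 libraries, the 6 epithelial markers of the tumour line summed to at most 4.89 TPM, and red cell and platelet markers to 14.1, 211 and 336 TPM. Of 11 ligand genes 6 reached a mean of 1 TPM, led by Cxcl10, a ligand of CXCR3, at 119, 142 and 130 TPM, while Cxcl12, the ligand of CXCR4, was listed at 0 in all 3. This table holds a single group, and the part of these signals in the Cxcr4 level was not tested.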

How the data were processed

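RNA from 36 mouse NK cell samples was turned into poly(A) libraries with a KAPA kit, per the labels' protocols. The authors deposited TPM in 4 tables; STAR, RSEM and GRCm39 are named in the submitters' processing notes, without versions. TPM keep no depth, so counting error is unknown, and precision rests on the spread of 3 replicates. Genes averaging 1 TPM or more in a table were fitted as log2(TPM + 1), which understates changes of low genes, with limma 3.58.1 in R 4.3.3: a mean per group, variance trend, two-sided tests, and Benjamini-Hochberg adjustment over all genes of each contrast, called under 0.05. Intervals are 95%. The smallest exact permutation p for 3 against 3 is 0.1. The script was tested on simulated data.

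Each table carries 1 batch date. Column names repeat replicate numbers across groups, so samples may share mice, which no label states. In the check used, few same-numbered pairs had a correlation of residuals over 0.1 (0 of 18, 1 of 3 and 1 of 9). Single members did follow the number in places. Cx3cr1 fell from replicate 1 to 3 in all 3 WT subsets, and S1pr1 rose in all 3 KO subsets. Neither gene did so in the other genotype, and Cxcr4 did so in neither. That check cannot exclude shared mice, and no block was fitted in the main tests. The tumour columns have names with B2MKO and SP, which the titles do not explain, and titles were followed. In the tumour libraries B2m averaged 4554 TPM. Genes of the sort receptors averaged 345 TPM for Klrc1, 179 TPM for Klra3 and 406 TPM for Klra9. What the column names refer to was not tested. Members and gene lists were chosen with earlier results of these data known. The 3 list genes with the largest called change per comparison were to be named, with the 3 genes most and least correlated with 4 members (mean of at least 10 TPM). S1pr4, Klf2, Cd69, Pik3r5, Coro1a and Cxcl10 were named after their values were seen. Promoters are from RefSeq GRCm38.p6, another build than the data, and serve only as sequence. Some list genes are not reported here. Alternatives were another pseudocount, no filter, quantile and median-of-ratios scaling, no trend, 2 groups alone, a replicate block, antibody groups by title and each library left out.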

Additional observations from a re-analysis of the deposited data

How the results depend on the processing

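Depth is unknown from TPM, and 3 replicates per group limit every test. No called change of a member turned its direction under any alternative run. Over single members, 1496 values with 1 library left out and 711 under the other alternatives kept direction and side of the threshold, while 7 and 6 lost a call, 6 and 6 gained one, and 51 and 11 changed sign or moved without a call in either fit. The 5 calls between WT subsets became 2 with only the 2 compared groups fitted. The 0 calls with ionomycin became 1 with quantile normalization (Ccr7), and ranged from 0 to 1 with each library left out; those with antibodies against medium ranged from 0 to 1. Leaving out replicate 3 of both ionomycin groups, an alternative chosen after seeing the data, gave 0. The cause of these shifts was not tested. With the replicate number as a block, which may or may not mark shared mice, calls numbered 7 between WT subsets. Those added were Ccr2, TN against TP (limma adjusted p = 0.0443), and S1pr5, TN against SP (0.0428). Calls numbered 3 between KO subsets, adding Cx3cr1, SP against TP (0.0334), and 7 for KO against WT. There was 1 with ionomycin (Ccr7, 0.0351), and 0 for the interaction and both antibody comparisons. Mean residual correlations of same-numbered libraries were 0.010 in the subset, 0.062 in the ionomycin and 0.064 in the antibody table. Those of libraries with other numbers were -0.005, -0.031 and -0.032, in that order.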
